A study of Homo sapiens with 6 samples.

Results

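SQSTM1 (also called p62) and 9 further selective autophagy receptors were followed in Huh7, a long-established human hepatocellular carcinoma line, after exposure to the compound 16'-DEC. The members are SQSTM1, NBR1, OPTN, CALCOCO2 (NDP52), TAX1BP1, TOLLIP, NCOA4, CCPG1, TEX264 and RETREG1 (FAM134B), and their rows were found by gene symbol. All 10 were found, each on 1 row, among the 78304 genes of the expression table. Cells of wild-type genotype were seeded for 24 h and then kept for 24 h with DMSO, the vehicle, or with 16'-DEC, and poly(A) RNA of 3 libraries per group was sequenced. 16'-DEC is known here only by that code, and the sources used here state no dose. Both groups are the same line with no engineered change, so 1 hepatoma line stands for the tumour cells of the study's title, which concerns autophagy induced by 16'-DEC. Levels are TPM, transcript abundances scaled for transcript length and to a fixed sum per library, which keep no sequencing depth. Whether the replicate libraries came from separate cultures is not stated, so the p-values speak only of the scatter among these 6 libraries, which may be technical.

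Selective autophagy delivers chosen cargo to the lysosome by means of receptors that hold the cargo on one side and an ATG8-family protein (LC3 or GABARAP) of the forming autophagosome on the other. SQSTM1, NBR1, OPTN, CALCOCO2, TAX1BP1 and TOLLIP bind ubiquitin on aggregates, damaged mitochondria or bacteria, whereas NCOA4 carries ferritin and CCPG1, TEX264 and RETREG1 carry pieces of the endoplasmic reticulum. SQSTM1 protein is itself degraded with its cargo, and its gene is known to be transcribed under NRF2, TFEB-family and other factors, so transcript and protein levels can move apart. Only transcripts were measured here.

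The members that rose and those that fell furthest differ in base composition, which is shown here by the first 60 coding bases of the 3 that rose and of the 2 that fell furthest. Bases are written 5′ to 3′ from the start codon on the coding strand, from GENCODE 29 on GRCh38, with capitals marking G or C at the last position of a codon.
SQSTM1: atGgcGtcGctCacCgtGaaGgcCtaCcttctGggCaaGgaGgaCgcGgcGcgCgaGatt
TOLLIP: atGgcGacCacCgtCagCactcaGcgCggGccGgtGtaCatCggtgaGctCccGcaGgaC
TEX264: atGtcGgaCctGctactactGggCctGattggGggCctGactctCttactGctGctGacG
TAX1BP1: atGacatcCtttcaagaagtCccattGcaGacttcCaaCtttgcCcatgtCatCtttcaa
CCPG1: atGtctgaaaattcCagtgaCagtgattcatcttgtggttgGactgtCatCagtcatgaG
Of the 20 last codon positions printed, 18 are G or C in SQSTM1, 18 in TOLLIP and 15 in TEX264, against 10 in TAX1BP1 and 7 in CCPG1. Over the whole coding sequence the share is 71.1% in SQSTM1, 86.5% in TOLLIP and 72.5% in TEX264. It is 33.0% in TAX1BP1, 33.8% in CCPG1 and 38.2% in RETREG1. The others lie between these groups, with 49.1% in NBR1, 49.8% in NCOA4, 51.7% in OPTN and 54.5% in CALCOCO2.

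The windows before the start sites of TOLLIP and TEX264 are shown because these receptors rose alongside SQSTM1. They hold 250 bases upstream of the RefSeq start on GRCh38.p14, on the strand of the gene, with capitals marking matches to the searched motifs.
TOLLIP, chr11:1309633-1309882, minus strand: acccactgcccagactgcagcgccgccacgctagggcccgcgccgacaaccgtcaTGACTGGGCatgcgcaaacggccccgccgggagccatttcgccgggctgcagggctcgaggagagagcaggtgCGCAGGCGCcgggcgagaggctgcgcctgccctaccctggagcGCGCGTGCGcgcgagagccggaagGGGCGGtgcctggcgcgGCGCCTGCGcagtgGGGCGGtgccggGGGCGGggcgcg
TEX264, chr3:51671002-51671251, plus strand: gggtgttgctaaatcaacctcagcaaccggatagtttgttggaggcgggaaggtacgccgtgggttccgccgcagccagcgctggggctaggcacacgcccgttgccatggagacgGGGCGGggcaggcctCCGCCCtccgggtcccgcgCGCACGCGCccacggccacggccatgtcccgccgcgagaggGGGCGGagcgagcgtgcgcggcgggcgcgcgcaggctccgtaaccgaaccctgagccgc
GC content is 77.2% in the TOLLIP window, 73.2% in that of TEX264 and 73.6% in that of SQSTM1, against a median of 58.0% over 35116 RefSeq promoters of this length (quartiles 46.4% and 68.0%). The OPTN window, at 74.4%, is as rich, although OPTN was not called. The windows of NBR1 and RETREG1 hold 51.6%, that of NCOA4 52.0%, those of CALCOCO2 and TAX1BP1 58.8% and that of CCPG1 64.8%.
Both strands were searched for 9 motifs. GGGCGG, the GC box bound by SP1, is in 9 of 10 member windows, 4 times in that of SQSTM1, and in 42.6% of all promoters. Here and below, all promoters were neither limited to expressed genes nor matched to the members in GC content. The RefSeq start lay downstream of the GENCODE transcript start by 146 bases in SQSTM1, 151 in CCPG1 and 47 in CALCOCO2. All GC boxes in the windows of SQSTM1 and CCPG1 thus lie within the span of the GENCODE transcript. The core of the antioxidant response element read by NRF2, TGACNNNGC, is in 3 member windows (CALCOCO2, TOLLIP and RETREG1) and in 10.9% of all. GCGCNTGCG, read by nuclear respiratory factor 1, is in 3 (TOLLIP, NCOA4 and TEX264) and in 6.54% of all. TGANTCA, the AP-1 site, is in the NCOA4 window and 6.57% of all, and TATAAA is in the CALCOCO2 window and 10.7% of all. No member window holds CACGTG, read by the TFEB family (6.34% of all), TGATGNAA, the composite ATF4 element (3.14%), TGACGTCA (1.65%) or CCGGAAGT (3.42%). Only 250 bases before a single start per gene were searched, so sites further away or at other starts could not be found. A match is a run of letters and not a measured binding site, and in the windows printed no match overlaps that of another motif.

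The libraries held together by group. Pearson's r across genes was at least 0.982 between libraries of a group and at most 0.922 between libraries of different groups. Genes were tested with limma on log2(TPM + 1), and changes are given on that scale as 16'-DEC minus DMSO, with adjusted p-values over all 14275 genes of at least 1 TPM on average and a threshold of 0.05. Of these genes 71.5% were called, 22.7% as higher and 48.9% as lower, so a called change is the common case in this comparison. The groups did not overlap for 75.3% of tested genes, and the median gene changed by -0.31. The 8 hepatoma markers, among them albumin and alpha-fetoprotein, were all detected, with summed levels of 13586 to 14159 TPM in DMSO and 12003 to 12421 TPM with 16'-DEC. These sums hold changes both ways, with 2 markers called higher and 3 lower. AFP fell from 2721 to 965 TPM and APOB from 627 to 196 TPM, whereas APOA1 rose by 0.73 and SERPINA1 by 0.50. Of 8 markers of blood, endothelial and stromal cells, 2 averaged at least 1 TPM. These were PDGFRB at 1.76 and 1.25 TPM, and CD68, a lysosomal membrane protein that is also a macrophage marker, which rose from 16.8 to 40.7 TPM. The leukocyte marker PTPRC measured 0.061, 0.059 and 1.17 TPM in DMSO, where 1 library carries the level, and at most 0.034 TPM with 16'-DEC, and CD3E was listed at 0 in all 6 libraries. The 8 genes summed to 18.5 to 21.4 TPM in DMSO and 37.6 to 46.4 TPM with 16'-DEC, a rise carried by CD68. PDGFRB, the next highest, was not called. The sum moves with the results below, and the part of these genes in them was not tested.

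Among the receptors, 3 rose, 4 fell and 2 were not called. SQSTM1, TEX264 and TOLLIP rose, and CCPG1, TAX1BP1, NBR1 and NCOA4 fell, while OPTN and CALCOCO2 did not pass the test. RETREG1 averaged under 1 TPM and was not tested, so 9 of 10 members entered the test. The groups were apart for 7 of the 9 tested members and for 8 of all 10, which is near the share over all tested genes. The median change of the 9 was 0.07, against -0.31 over all genes. The share called is also near the background, so the count alone does not set the receptors apart; the levels and the unlike directions of the members are what follows.

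SQSTM1 binds ubiquitin chains, forms filaments through its PB1 domain and gathers ubiquitinated proteins into condensates. Its gene lies on GRCh38 chromosome 5, from 179806398 to 179838078 on the plus strand, and the transcript used here has 8 exons. SQSTM1 measured 353, 413 and 419 TPM in DMSO and 1037, 1025 and 963 TPM with 16'-DEC. Every treated library lay above every control library. The mean rose from 395 ± 36.3 to 1008 ± 39.3 TPM (SD, n = 3), a ratio of 2.55. The log2 change was 1.35 ± 0.0814 (SE), with a 95% interval from 1.17 to 1.54 and a limma adjusted p of 1.05e-06. Among tested genes SQSTM1 moved from rank 312 to rank 148 by level, and 102 genes had a larger change. In bulk RNA, more transcript per cell and more cells with a high level cannot be told apart.

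NBR1 is the partner of SQSTM1 in its condensates, with its own PB1, ubiquitin-binding and LC3-binding parts. It lies on chromosome 17, from 43170481 to 43211689 on the plus strand. NBR1 measured 104, 97.3 and 102 TPM in DMSO and 61.6, 67.6 and 48.1 TPM with 16'-DEC. All treated libraries were below all controls, and the treated ones were the more scattered. The mean fell from 101 ± 3.53 to 59.1 ± 10.0 TPM (SD, n = 3), with a log2 change of -0.78 ± 0.119 (SE; 95% interval -1.05 to -0.51; limma adjusted p = 3.37e-04). The pair moved in opposite directions in TPM, but with the GC and length adjustment described below NBR1 was no longer called (-0.15, adjusted p = 0.0795). Within each library, SQSTM1 exceeded NBR1 by a factor of 3.91 ± 0.458 in DMSO and 17.3 ± 2.48 with 16'-DEC (SD, n = 3). Such a ratio stays the same when a library is multiplied by a single factor, as in median-of-ratios scaling. It does not stay the same under quantile normalization or the GC and length adjustment. Under these SQSTM1 changed by 1.20 and 1.15, and NBR1 by -0.54 and -0.15.

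TAX1BP1 and CALCOCO2 are related receptors with an SKICH domain, and with OPTN they serve the clearance of damaged mitochondria and bacteria. TAX1BP1 lies on chromosome 7 (27739331 to 27844564, plus strand), CALCOCO2 on chromosome 17 (48830988 to 48866522, plus strand) and OPTN on chromosome 10 (13099449 to 13138308, plus strand). TAX1BP1, which also follows NBR1 to aggregates, measured 224, 204 and 210 TPM in DMSO and 75.6, 81.5 and 65.7 TPM with 16'-DEC. The groups were far apart. Its mean fell from 213 ± 10.3 to 74.3 ± 8.01 TPM (SD, n = 3), 2.86-fold, and the log2 change was -1.51 ± 0.0912 (SE; 95% interval -1.72 to -1.30; limma adjusted p = 1.07e-06). CALCOCO2 measured 125, 103 and 118 TPM in DMSO and 130, 135 and 101 TPM with 16'-DEC, so that one treated library lay below all controls and the others above them. Its log2 change was 0.07 ± 0.121 (SE), with an interval from -0.20 to 0.35 and a limma adjusted p of 0.613. OPTN, which TBK1 phosphorylates, measured 96.1, 103 and 89.6 TPM in DMSO and 99.7, 112 and 107 TPM with 16'-DEC. The OPTN groups overlapped in a single pair of libraries. Its log2 change was 0.14 ± 0.0807 (SE), with an interval from -0.04 to 0.33 and a limma adjusted p of 0.139, which leaves room for no change and for a small rise. Because TAX1BP1 fell and CALCOCO2 was not called, their order in TPM as deposited turned round in every treated library. The ratio of CALCOCO2 to TAX1BP1 within a library went from 0.542 ± 0.032 to 1.64 ± 0.0861 (SD, n = 3). After the GC and length adjustment described below, CALCOCO2 changed by 0.77 and TAX1BP1 by -0.28.

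TOLLIP binds ubiquitin through its CUE domain and acts in aggregate clearance and in endosomal sorting. Its gene lies on chromosome 11, from 1274371 to 1309654 on the minus strand. TOLLIP measured 19.0, 21.6 and 22.7 TPM in DMSO and 37.2, 31.6 and 31.4 TPM with 16'-DEC. All treated libraries were above all controls. The mean rose from 21.1 ± 1.87 to 33.4 ± 3.28 TPM (SD, n = 3), 1.58-fold, with a log2 change of 0.64 ± 0.101 (SE; 95% interval 0.41 to 0.87; limma adjusted p = 4.14e-04).

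NCOA4 carries ferritin to the lysosome, where stored iron is released. It lies on chromosome 10, from 46005088 to 46030714 on the minus strand. NCOA4 measured 384, 349 and 373 TPM in DMSO and 252, 295 and 233 TPM with 16'-DEC. The groups did not overlap. The mean fell from 369 ± 18.0 to 260 ± 31.6 TPM (SD, n = 3), 1.42-fold, with a log2 change of -0.51 ± 0.0936 (SE; 95% interval -0.72 to -0.29; limma adjusted p = 0.00107). With median-of-ratios scaling, which raised the median of all genes by 0.29, its change was -0.16 (adjusted p = 0.122) and no longer called. The transcripts of its cargo, ferritin, went the other way in TPM as deposited. The ferritin heavy chain transcript FTH1 rose from 2993 to 6093 TPM (change 1.03) and the light chain FTL from 5934 to 11122 TPM (0.91). Within a library FTL exceeded NCOA4 by a factor of 16.2 ± 2.09 in DMSO and 43.3 ± 6.90 with 16'-DEC, and FTH1 by 8.15 ± 1.01 and 23.7 ± 3.84 (SD, n = 3).
Of the 7 tested genes of iron storage and ferritinophagy, 3 rose and 4 fell, with a median of -0.36. Over all tested genes 22.7% were called higher and 48.9% lower, with a median of -0.31, which is close to that of this list. ACO1, the cytosolic aconitase that doubles as an iron regulatory protein, rose by 0.41. IREB2, the other iron regulatory protein, fell by 1.49, the transferrin receptor TFRC fell by 1.04 and the iron exporter ferroportin, SLC40A1, fell by 0.70. With the adjustment for GC content and length described below, none of the 7 was called lower, and TFRC stood at 0.05 and SLC40A1 at 0.21.

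CCPG1 is a receptor of the endoplasmic reticulum membrane known as a target of the unfolded protein response. It lies on chromosome 15, from 55340032 to 55408510 on the minus strand. CCPG1 measured 111, 116 and 108 TPM in DMSO and 26.3, 27.3 and 24.0 TPM with 16'-DEC. Both groups were tight and lay far apart. The mean fell from 112 ± 3.66 to 25.9 ± 1.68 TPM (SD, n = 3), 4.32-fold, and its log2 change of -2.07 ± 0.0772 (SE; 95% interval -2.25 to -1.90; limma adjusted p = 1.44e-07) was the largest in size among the receptors in TPM as deposited, though not after the GC and length adjustment (-0.62, against 1.15 for SQSTM1). Even so, 471 genes fell further on this scale. TEX264, a major single-pass receptor of the endoplasmic reticulum, lies on chromosome 3 from 51662693 to 51704323 on the plus strand. TEX264 measured 20.5, 25.7 and 25 TPM in DMSO and 41.2, 35.7 and 41.8 TPM with 16'-DEC. Its groups did not overlap either, in the opposite direction. The mean rose from 23.7 ± 2.78 to 39.6 ± 3.36 TPM (SD, n = 3), 1.67-fold, with a log2 change of 0.72 ± 0.107 (SE; 95% interval 0.47 to 0.96; limma adjusted p = 2.95e-04). The ratio of TEX264 to CCPG1 within a library went from 0.212 ± 0.0247 to 1.54 ± 0.218. In TPM as deposited TEX264 was thus below CCPG1 in all control libraries and above it in all treated ones. After the GC and length adjustment the changes were smaller, 0.40 for TEX264 and -0.62 for CCPG1. Whether the pair still crossed on adjusted values was not tested. RETREG1, a reticulon-like receptor of the sheets of the endoplasmic reticulum, lies on chromosome 5 from 16473038 to 16617058 on the minus strand. RETREG1 measured 0.276, 0.294 and 0.184 TPM in DMSO and 0.122, 0.150 and 0.0700 TPM with 16'-DEC. These levels are too low for the test; when genes of all levels were kept, its change was -0.17 (limma adjusted p = 0.0775).

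**Figure D1:**
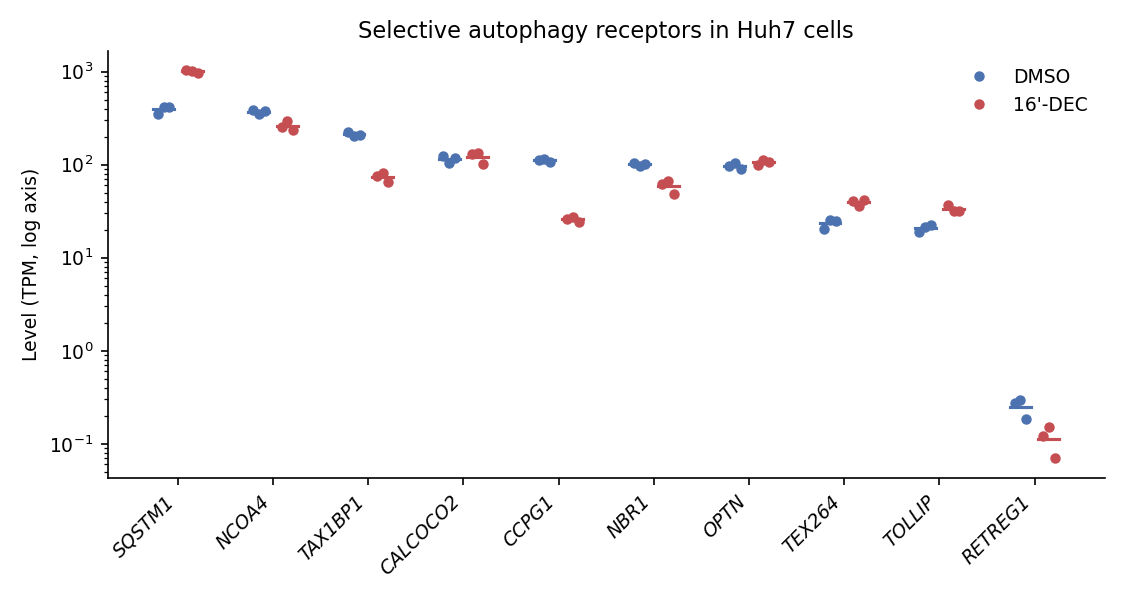
Level of each of the 10 receptors in the 6 libraries, in TPM on a log axis, with points for single libraries and lines for group means. SQSTM1, TOLLIP and TEX264 are higher in all 3 treated libraries, CCPG1, TAX1BP1, NBR1 and NCOA4 are lower in all 3, as is RETREG1 at much lower levels, and the groups of OPTN and CALCOCO2 overlap.

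**Figure D2:**
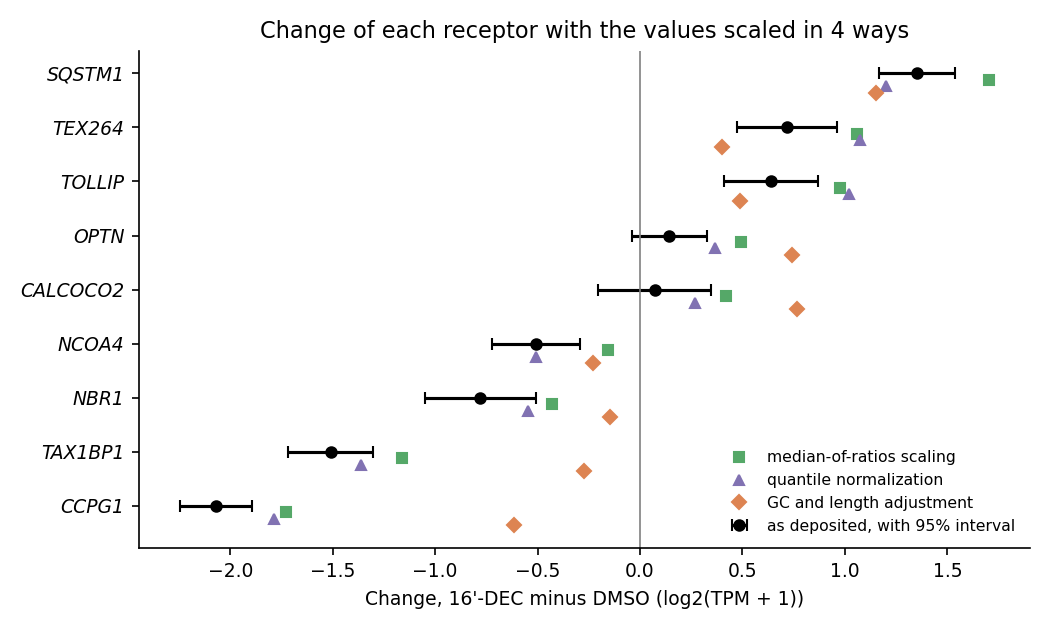
Change of the 9 tested receptors on the log2(TPM + 1) scale, 16'-DEC minus DMSO: black points with 95% intervals for the TPM as deposited, and coloured marks for median-of-ratios scaling, quantile normalization and the GC and length adjustment. Black points run from -2.07 for CCPG1 to 1.35 for SQSTM1, the intervals of OPTN and CALCOCO2 include 0, and the GC-adjusted marks of CCPG1 and TAX1BP1 lie much nearer to 0.

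In TPM as deposited, the receptor pool changed its make-up more than its size. The 10 transcripts summed to 1446 ± 18.5 TPM in DMSO and 1729 ± 101 TPM with 16'-DEC (SD, n = 3). Without SQSTM1 the sum went down, from 1051 ± 33.1 to 721 ± 66.7 TPM, and neither pair of groups overlapped. SQSTM1 made up 24.5%, 28.8% and 28.5% of the pool in DMSO and 58.9%, 56.6% and 59.6% with 16'-DEC. The mean share of NCOA4 went from 25.5% to 15%, that of TAX1BP1 from 14.7% to 4.29% and that of CCPG1 from 7.73% to 1.5%. In DMSO the order of mean levels was SQSTM1 and NCOA4, TAX1BP1, CALCOCO2 and CCPG1, NBR1 and OPTN, TEX264 and TOLLIP, and last RETREG1. Neighbours joined by "and" overlapped in their libraries. CALCOCO2 and NBR1, which were not neighbours, overlapped as well, with a lowest value of 103 TPM and a highest of 104 TPM. With 16'-DEC the order was SQSTM1, NCOA4, CALCOCO2 and OPTN, TAX1BP1 and NBR1, TEX264 and TOLLIP, CCPG1 and then RETREG1. There CCPG1 no longer overlapped a neighbour. SQSTM1 and NCOA4, level with each other in DMSO (ratio 1.08 ± 0.139), were apart by a factor of 3.91 ± 0.372 after treatment. SQSTM1 exceeded TAX1BP1 by a factor of 1.86 ± 0.251 and then 13.6 ± 1.05. These are sums and ratios of TPM and carry no test of their own. They were taken only from the values as deposited, and sums on rescaled values were not computed. With the GC and length adjustment below, the falls were smaller and OPTN and CALCOCO2 were called higher. The fall of the sum without SQSTM1 is therefore given for the deposited values alone.

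**Figure D3:**
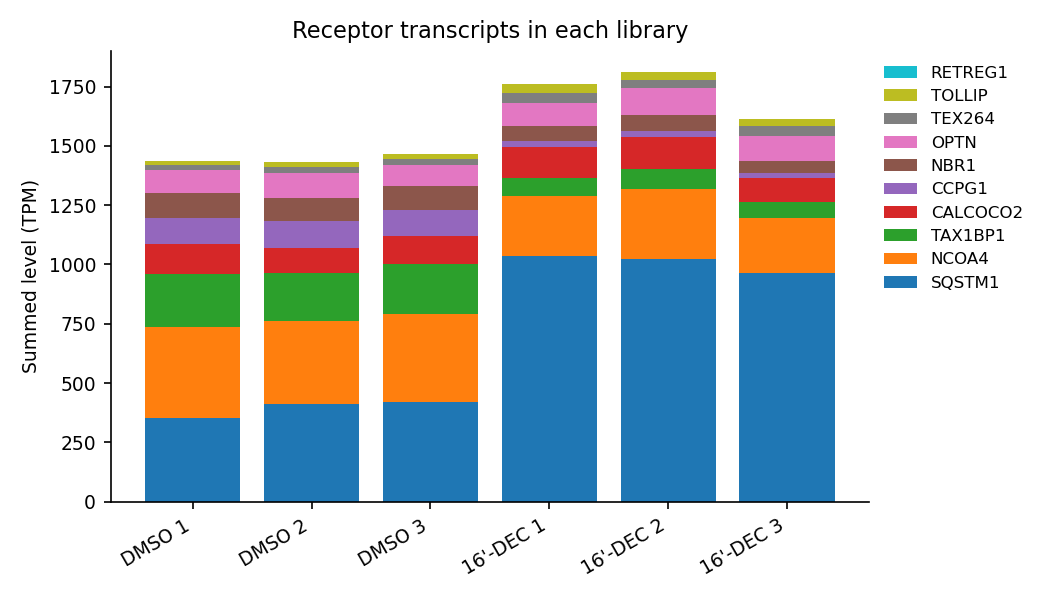
Summed level of the 10 receptors in TPM for each of the 6 libraries, as bars stacked by receptor (RETREG1 is too low to see). SQSTM1 takes 24.5% to 28.8% of the bar in the DMSO libraries and 56.6% to 59.6% in the 16'-DEC libraries.

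Transcript GC content moved with these changes, over all genes and among the receptors. Of 1968 tested genes under 40% GC, 1839 were called lower and 21 higher, with a median of -1.46. Of 2009 genes over 60% GC, 254 were called lower and 943 higher, with a median of 0.27. The receptors that fell furthest were poor in GC, CCPG1 at 38.2% and TAX1BP1 at 39.2%. Those that rose were rich in it, SQSTM1 at 58.0%, TOLLIP at 58.1% and TEX264 at 62.7%. Spearman's rho between GC content and change over the 9 members was 0.817, given as a description of points that share the same libraries. NCOA4 at 46.7%, NBR1 at 44.9%, OPTN at 44.8% and CALCOCO2 at 44.2% lay between. These values are of 1 chosen transcript per gene. Coding transcripts ranged from 33.0% to 53.5% in CCPG1 and from 37.1% to 48.0% in TAX1BP1. In SQSTM1 they ranged from 56.1% to 72.6%, in TOLLIP from 57.5% to 69.2% and in TEX264 from 59.7% to 62.7%.
An adjustment that removed from each library a smooth trend on GC content and transcript length, and so re-centred it as well, gave other sizes. SQSTM1 kept most of its rise, at 1.15 (limma adjusted p = 3.05e-06). TOLLIP stood at 0.49 and TEX264 at 0.40, both still called. CCPG1 was smaller but still called, at -0.62 (adjusted p = 9.53e-05), as were TAX1BP1 at -0.28 (adjusted p = 0.00452) and NCOA4 at -0.23 (adjusted p = 0.0181). NBR1 lost its call, at -0.15 (adjusted p = 0.0795), while OPTN at 0.74 (adjusted p = 1.06e-04) and CALCOCO2 at 0.77 (adjusted p = 1.31e-04) gained one as higher. The count was then 5 higher and 3 lower. The direction of SQSTM1, TOLLIP, TEX264, CCPG1, TAX1BP1, NBR1 and NCOA4 was the same under every alternative run, whereas the size of the falls and the calls of OPTN, CALCOCO2, NBR1 and NCOA4 were not. Whether the trend with GC content came from the libraries or from the cells was not tested.
Scaling moved the calls as well. Of all calls 68.3% were lower, against 50.4% once libraries were scaled by median of ratios, 44.2% once they were quantile-normalized and 47.9% with the GC and length adjustment. With median-of-ratios scaling 5 receptors were called higher and 3 lower, with OPTN at 0.49 (adjusted p = 9.70e-04) and CALCOCO2 at 0.42 (adjusted p = 0.00513) among the higher. With quantile normalization, which raised the median of all genes by 0.41, 4 were higher and 4 lower, with OPTN at 0.37 (adjusted p = 0.00191). The change of SQSTM1 was 1.70 and 1.20 under these scalings, and that of CCPG1 was -1.73 and -1.79.

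**Figure D4:**
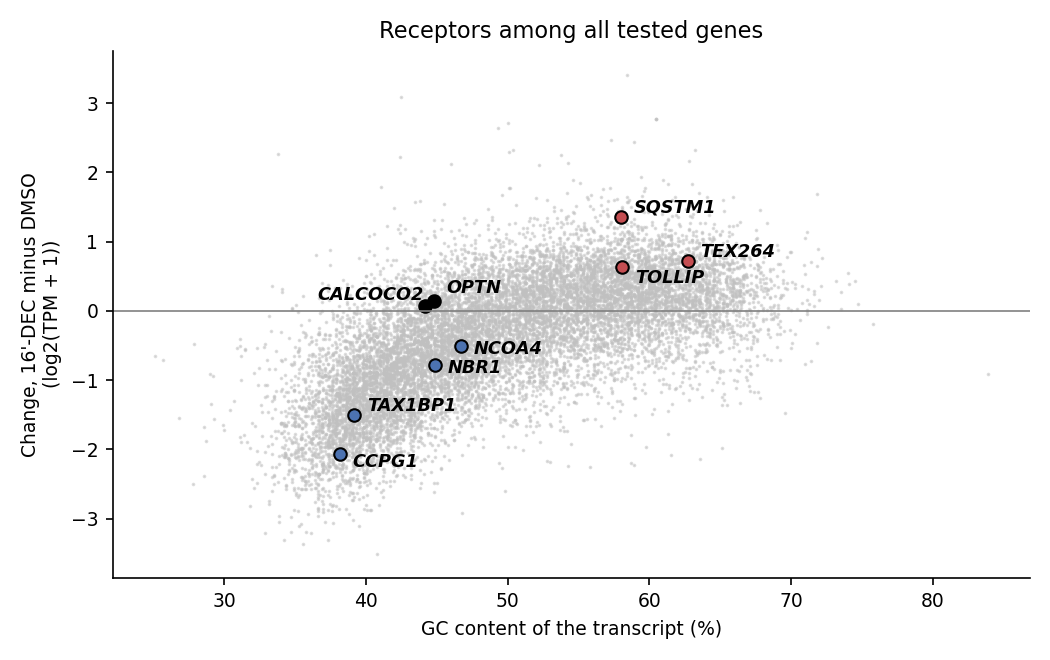
Change on the log2(TPM + 1) scale, before any adjustment, against transcript GC content in percent, with grey points for all tested genes and labelled points for the 9 tested receptors (red called higher, blue called lower, black not called). CCPG1 and TAX1BP1 sit low at the GC-poor end, and SQSTM1, TOLLIP and TEX264 lie above 0 at the GC-rich end.

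Some member exons are shared with other genes, and the libraries are not described as strand-marked, so those reads cannot be told apart by strand. MRNIP, on the opposite strand, covers 20.7% of the exon bases annotated for SQSTM1. It fell from 11.8 to 6.68 TPM and was far below SQSTM1. MGAT4B overlaps SQSTM1 by 105 bases and measured 134 and 152 TPM (change 0.19, limma adjusted p = 0.126). PIGB overlaps CCPG1 by 443 bases and fell from 15.7 to 8.04 TPM, and AC060780.1, a noncoding RNA opposite NBR1, overlaps it by 463 bases and fell from 15 to 5.42 TPM. RAD54L2 shares 184 bases with TEX264 and measured 5.30 and 4.91 TPM. The read-through transcript DNAAF4-CCPG1 covers 38.7% of the CCPG1 exon bases and averaged 0.0263 TPM in DMSO, and was listed at 0 with 16'-DEC. The annotated pseudogenes of SQSTM1 and NCOA4, 5 in all, were listed at 0 in every library.

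The remaining genes are given by lists, each a count of calls beside the background of 22.7% higher and 48.9% lower, and no list was tested as a whole. The ATG8 proteins are what the receptors bind. Of 7, the 4 with at least 1 TPM gave 2 higher and 0 lower. GABARAP rose from 219 to 394 TPM (0.85, limma adjusted p = 5.89e-06) and GABARAPL1 from 22.6 to 45.8 TPM (0.98). MAP1LC3B, the usual LC3 marker, measured 184 and 197 TPM (0.10, adjusted p = 0.256), and GABARAPL2 94.8 and 98.0 TPM (0.05, adjusted p = 0.566), and under both other scalings and the GC adjustment all 4 were called higher. The GABARAP subfamily summed to 336 ± 14.8 TPM and then 538 ± 9.97 TPM. SQSTM1 exceeded MAP1LC3B by a factor of 2.15 ± 0.171 in DMSO and 5.12 ± 0.421 with 16'-DEC (SD, n = 3).

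Kinases and adaptors that act on the receptors gave 4 higher and 3 lower of 9. TBK1, which phosphorylates OPTN and SQSTM1, fell from 57.1 to 13.3 TPM (-2.02, limma adjusted p = 5.44e-07) and stood at -0.76 after the GC adjustment. Its adaptor TANK fell by 1.43, to -0.18 after the adjustment, and AZI2 fell by 0.90 but stood at 0.54 after it. CSNK2B, the regulatory subunit of casein kinase 2, rose by 0.66, IKBKE by 0.46 and ULK1, the initiating kinase of autophagy, by 0.44.
Among the scaffold and conjugation genes with which receptors start an autophagosome, 5 rose and 4 fell of 9. RB1CC1 (FIP200), which SQSTM1, CCPG1 and TAX1BP1 bind, fell from 69.7 to 13 TPM (-2.35, limma adjusted p = 3.79e-07; -0.84 after the GC adjustment). ATG3, the E2 enzyme of LC3 lipidation, fell by 0.94 and kept -0.81 after the adjustment, whereas ATG5 fell by 1.48 and stood at -0.17 after it, no longer called. ATG101 rose by 1.11, ATG13 by 0.81 and the phosphoinositide reader WIPI2 by 0.57. The complex that holds RB1CC1, ATG13, ATG101 and ULK1 thus had members on both sides.

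Of the 14 tested receptors beyond the 10, 5 rose and 6 fell, with a median of 0.12. The glycogen receptor STBD1 rose by 0.84, RETREG2, a relative of RETREG1, by 0.53, and the mitochondrial PHB2 by 0.52. BNIP3, a mitochondrial receptor induced by low oxygen, fell from 412 to 185 TPM (-1.15; -0.61 after the GC adjustment). SEC62, a receptor in the recovery from endoplasmic reticulum stress, fell by 1.82 and stood at -0.24 after the adjustment. FUNDC1, another mitochondrial receptor, fell by 0.90 and stood at 0.11 after it.
The UFM1 conjugation system marks the endoplasmic reticulum for autophagy, and of its 7 genes 2 rose and 4 fell. UFL1, the ligase, fell by 2.05 and UFM1 itself by 1.65, and the values after the adjustment were -0.45 and -0.07. UFC1 rose by 0.44 and DDRGK1 by 0.45. Of 7 chaperones and cofactors of aggregate clearance, 5 rose and 2 fell, with a median of 0.70. The small heat shock protein HSPB8 rose from 3.43 to 19.9 TPM (2.24, limma adjusted p = 2.60e-07; 2.12 after the adjustment), HSPB1 rose by 1.04 and the segregase VCP by 0.70. UBQLN2 fell by 0.56 and UBQLN1 by 0.25, and both were above 0 after the adjustment, at 0.14 and 0.43.

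Signalling partners of SQSTM1 gave 2 higher and 3 lower of 10. PRKCZ, the atypical protein kinase C zeta that binds the SQSTM1 PB1 domain, rose from 97.3 to 324 TPM (1.73, limma adjusted p = 2.37e-07; 1.42 after the GC adjustment). Its relative PRKCI fell from 19.3 to 8.09 TPM (-1.16) and stood at 0.19 after the adjustment. KEAP1, which SQSTM1 can sequester away from NRF2, rose by 0.56. CYLD fell by 0.60 and stood at 0.24 after the adjustment, and RIPK1 fell by 0.31 but stood at 0.14 with quantile normalization.
Of 11 tested transcription factors known to act on SQSTM1 or its pathway, 6 rose and 3 fell. NFE2L2, which encodes NRF2, fell from 299 to 108 TPM (-1.47, limma adjusted p = 8.19e-07; -1.02 after the adjustment), in the opposite direction to SQSTM1. BACH1, a repressor at NRF2 sites, fell by 1.15 but stood at 0.26 after the adjustment, and FOXO3 fell by 0.79. MAFF rose by 1.44, MAFK by 0.91 and HSF1 by 0.72. TFEB itself was low, at 3.35 and 3.41 TPM (0.02, adjusted p = 0.891; -0.29 after the adjustment), and its relative TFE3 rose by 0.71 from 23.5 to 39.0 TPM.
Among 10 genes known as NRF2 targets, 7 rose and 2 fell, with a median of 0.63. NQO1 rose from 1009 to 1832 TPM (0.86, limma adjusted p = 5.08e-06), SRXN1 by 1.04 and OSGIN1 by 1.44. The cystine transporter SLC7A11 fell by 1.41 and GCLC by 0.48, and after the adjustment they stood at 0.27 and 0.20, with 9 of the 10 called higher and 0 lower. TXNRD1, at 0.12 (adjusted p = 0.406), was not called.
These counts moved with the scaling, as those of all genes did. With median-of-ratios scaling the higher and lower calls were 8 and 3 for the transcription factors, 8 and 1 for the NRF2 targets, 7 and 2 for the signalling partners, 8 and 6 for the further receptors, 6 and 3 for the kinases, 5 and 4 for the scaffold genes, 5 and 1 for aggregate clearance, and 3 and 3 for both iron storage and UFM1 conjugation. After the GC and length adjustment they were 7 and 3, 9 and 0, 4 and 0, 8 and 2, 6 and 2, 6 and 2, 6 and 0, 4 and 0 for iron storage and 3 and 3 for UFM1 conjugation, in the same order. The further receptors and the signalling partners, which had more lower than higher calls at first, thus had more higher calls under both.

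**Figure D5:**
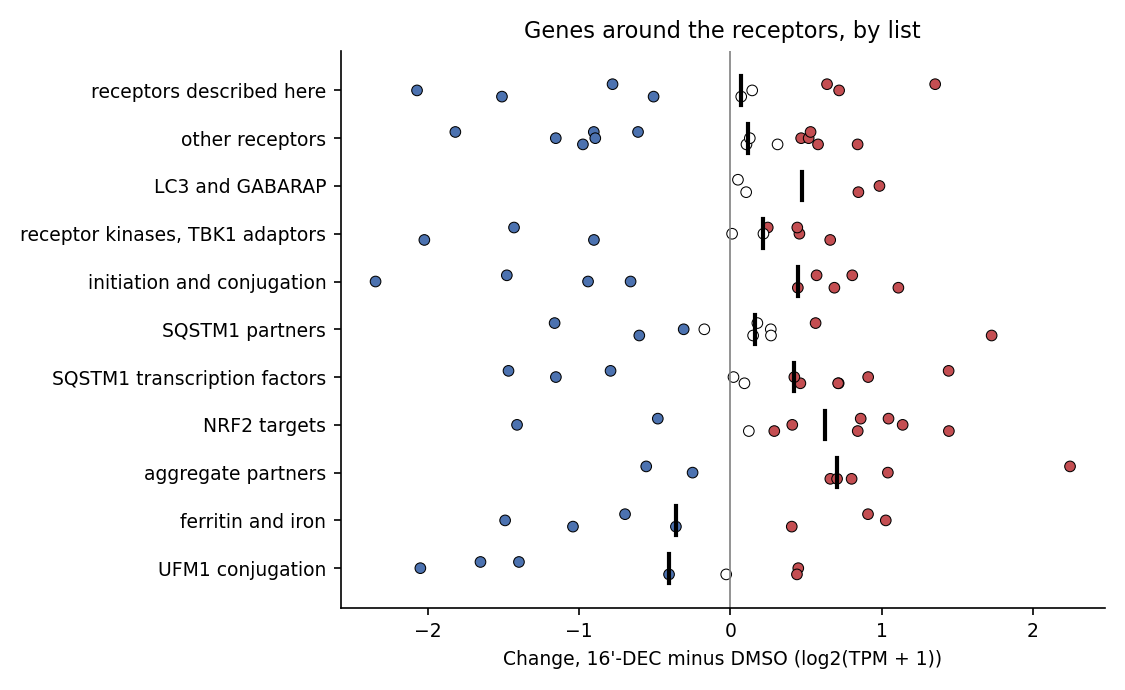
Change on the log2(TPM + 1) scale of each tested gene, 1 row per list, with red points called higher, blue called lower and white not called, and a black bar at the list's median. Every list but LC3 and GABARAP has called genes on both sides of 0, and HSPB8 at 2.24 and RB1CC1 at -2.35 are at the ends.

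The 5 genes whose course over the 6 libraries lay nearest to that of SQSTM1 were CTSB, PLIN2, EHD2, SSR2 and S100A16. They were taken from 9806 genes with a symbol and a mean of at least 5 TPM, members left out. Each course, on the log2(TPM + 1) scale, was first centred on the gene's own DMSO mean. Nearness was the root mean square difference between a gene's course and that of SQSTM1. CTSB, the lysosomal protease cathepsin B, differed by 0.0276 and rose from 542 ± 48.9 to 1373 ± 37.9 TPM (SD, n = 3; change 1.34). PLIN2, a coat protein of lipid droplets, differed by 0.0285 and rose from 542 ± 41.4 to 1382 ± 44.5 TPM (1.35). EHD2, SSR2 and S100A16 differed by 0.0438, 0.0529 and 0.0579. EHD2 was low, at 2.53 and 8.04 TPM, where the log2(TPM + 1) scale understates a change. After the GC and length adjustment the 5 changed by 1.41, 1.45, 1.17, 1.30 and 1.16, in the order named, against 1.15 for SQSTM1. The measure ranks likeness of course over 3 libraries per group and was chosen to match SQSTM1, so these changes carry no test here.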

How the data were processed

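Poly(A) RNA-seq of 6 Huh7 libraries, grouped by their titles, was analysed. The authors deposited 1 table of TPM. Per the submitters' processing notes, which assign no role or order, the build was GRCh38 and the tools included HTSeq 0.6.1, HISAT2 2.0.1, DESeq2 and cutadapt 1.9.1. Which annotation lies behind the values is not given in the sources used here. These values are relative and keep no depth, so a change in abundant genes shifts the others. Genes averaging 1 TPM or more were tested 2-sided by limma 3.58.1 (R 4.3.3; lmFit, then eBayes with trend on the mean) on log2(TPM + 1), which understates changes of low genes, with Benjamini-Hochberg adjustment. The fit was tested on simulated data. GC content and length came from GENCODE 29 (1 transcript per gene: APPRIS principal, then basic, then the longest; 93.1% of tested genes). The adjustment removed a natural spline with 5 degrees of freedom each for GC content and log2 length from every library.

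Members and lists were chosen with earlier results of these data known. Named genes are the members, up to 3 called genes each way of smallest adjusted p per list (the 2 most abundant where none was called), genes of at least 1 TPM that overlap member exons, and the 5 nearest to SQSTM1. MAP1LC3B, GABARAPL2, TFEB, TFE3, TXNRD1, PDGFRB, PTPRC, CD3E, DNAAF4-CCPG1, ATG12, BNIP3L, NUFIP1, TF and UFSP2 were named beyond this rule, after their values were seen. Some genes named by the rule do not appear in the text. Promoters are from RefSeq on GRCh38.p14, and all 10 members matched. Python 3.11.15 with matplotlib 3.10.9 drew the figures.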

Additional observations from a re-analysis of the deposited data

How the results depend on the processing

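The receptors gave 3 higher and 4 lower calls with pseudocounts of 0.1 and 5, no filter, a mean of at least 5 TPM, no mean trend, the replicate block and each library left out. They gave 5 higher after median-of-ratios scaling, with the GC and length adjustment and with that adjustment plus the block. Over all genes, 3236 higher calls became 5290 after median-of-ratios scaling and 5990 after quantile normalization. The 6974 lower calls became 4213 with the GC and length adjustment and 3982 with the block added to it. Leaving out 1 library gave 2773 to 3426 higher and 6670 to 6754 lower. The change of CALCOCO2 was -0.00746 without DMSO replicate 2 and -0.00660 without 16'-DEC replicate 2, and up to 0.20 without another library. The GC and length adjustment, with or without the block, turned the sign of these genes followed through the alternatives: ALB (0.77), AZI2 (0.54), BACH1 (0.26), CYLD (0.24), FUNDC1 (0.11), GCLC (0.20), MGAT4B (-0.11), PRKCI (0.19), RAD54L2 (0.12), SLC40A1 (0.21), SLC7A11 (0.27), TFRC (0.0518), UBQLN1 (0.43) and UBQLN2 (0.14). Among the other genes of the lists, ATG12 (0.81), BNIP3L (0.71), NUFIP1 (0.36), TF (0.90), UFSP2 (0.72) and TFEB (-0.29) turned as well. For median-of-ratios scaling and quantile normalization, turns of sign were read only for the genes followed through the alternatives, so other list genes may have turned too. Median-of-ratios scaling turned ALB (0.178), RAD54L2 (0.17), RIPK1 (0.0240) and UBQLN1 (0.0978). Quantile normalization turned RAD54L2 (0.40) and RIPK1 (0.14), and RAD54L2 ranged from -0.24 to 0.0972 with 1 library left out. The cause was not tested. Same-numbered libraries deviated from their group means with correlations of 0.0941, -0.182 and -0.0726. Those of differently numbered libraries ran from -0.196 to 0.274, so no shared deviation by number was seen. With 3 libraries per group this cannot decide whether same-numbered samples were handled as pairs. A replicate block gave 3014 higher and 6823 lower calls and changed no call of a receptor. TPM give no depth, so counting error is unknown.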
